A study of Mus musculus with 12 samples.

Results

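The 8 protein-coding genes Pappa, Pnck, Arhgef28, Gtf2i, Ccnb1ip1, Angel2, Gm20604 and Gon7 were chosen by their RNA-seq read totals: of 18208 genes in the RNA-seq table of mouse striatum, they had the most reads summed over 6 libraries. Together they held 10.4% of all RNA-seq reads and 0.0260% of the reads in hnRNP H CLIP positions, with overlapping positions each counted. Because the read totals chose the genes, their levels are given as a description, and tests were run only on the difference between treatments and on CLIP reads.

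RNA was sequenced from the striatum of wild-type C57BL/6J mice aged postnatal day 50 to 100, which came from crosses of males heterozygous for an Hnrnph1 mutation with C57BL/6J females. All mice received saline by intraperitoneal injection on days 1 and 2, and on day 3 either saline again (10 ml/kg) or the psychostimulant methamphetamine (2 mg/kg), with the striatum dissected 30 min later. Each replicate was a pool of 4 mice, 2 females and 2 males, with 3 pools per treatment. From every pool, part of the material gave an RNA-seq library and the rest was cross-linked for CLIP-seq, in which an antibody precipitated hnRNP H, an RNA-binding protein, with its RNA, and RNA fragments of 30 to 70 nt were sequenced.

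The RNA-seq libraries held 3935160 to 5091839 reads and the CLIP libraries 423057 to 1635338 reads in the listed positions. Saline replicates 1 and 3 and methamphetamine replicate 2 stood apart from the other 3 RNA-seq libraries on the first principal component, which took 65.6% of the variance, and both sets contain both treatments. Striatal projection neuron markers were present, with 10 of 10 genes detected in the table and a summed level of 6471 to 7626 CPM (counts scaled to library size) in saline and 5743 to 6847 CPM in methamphetamine. Choroid plexus markers, 6 of 6 detected, summed to 41.9 to 174 CPM in saline and 58.1 to 4337 CPM in methamphetamine, the highest value being that of methamphetamine replicate 2. Cortical, astrocyte, oligodendrocyte, microglia and endothelial markers were all detected as well, and no list had a gene at 0.

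The 8 genes belong to no shared pathway. Pappa encodes a secreted metalloproteinase that cuts insulin-like growth factor binding proteins and so frees the growth factor, and it is best known from pregnancy. Pnck encodes a calcium/calmodulin-dependent kinase of the CaMKI family, and Arhgef28 a guanine nucleotide exchange factor that activates the GTPase RhoA. Gtf2i encodes the transcription factor TFII-I, and Ccnb1ip1, also called HEI10, a ubiquitin ligase needed for crossovers in meiosis. Angel2 belongs to a family of endonuclease/exonuclease/phosphatase domain proteins related to the deadenylase CCR4 and to nocturnin. Gon7 encodes a subunit of the KEOPS complex, which modifies transfer RNA, and Gm20604 is a predicted gene whose annotated span contains Gon7. hnRNP H binds RNA at runs of G and is known as a splicing regulator.

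Pappa (chr4:65124174-65357509, plus strand, GRCm38) had the most reads of all genes, 795485 in total or 2.82% of all RNA-seq reads. Saline replicates 1, 2 and 3 had 122200, 99686 and 213455 reads, and methamphetamine replicates 1, 2 and 3 had 119455, 185944 and 54745; values are given in this order throughout. Saline replicate 3 and methamphetamine replicate 2 were highest and methamphetamine replicate 3 lowest, and the treatments overlapped. In every library Pappa ranked 1 or 2 among all genes by reads.

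Pnck (chrX:73655994-73660117, minus strand) followed with 668661 reads. Saline libraries had 116670, 118289 and 116286 of them, methamphetamine libraries 90261, 137424 and 89731. The deposited log2 CPM is scaled to effective library sizes, which differ from the read totals, and RNA-seq CPM ranges of single genes are on this scale. For Pnck it was 15.001, 14.61 and 14.82 in saline and 14.14, 14.94 and 14.08 in methamphetamine. Saline replicate 1 was thus highest, methamphetamine replicates 1 and 3 were lowest, and the treatments overlapped. Per kilobase of exon Pnck was the highest gene of the table, at a mean of 12161 RPKM (reads scaled to exon length and library size), against a median of 2.42 RPKM over the 17927 genes with an exon length. Ccnb1ip1 ranked 2 and Gon7 ranked 3 on this scale, at 5412 and 4003 RPKM. Ranked by RPKM, Pappa was 5, Gm20604 was 6, Arhgef28 was 7, Angel2 was 13 and Gtf2i was 14.

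Arhgef28 (chr13:97899469-98206439, minus strand) varied most. Saline libraries had 63001, 26032 and 123016 reads of it, methamphetamine libraries 33838, 105884 and 11708. Its highest CPM was 13.5-fold its lowest, which ranked 3 among the 836 genes with at least 6000 reads, whose median ratio was 1.52. In methamphetamine replicate 3 it was at rank 20 among all genes by reads, while in saline replicate 3 it ranked 2.

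Gtf2i (chr5:134237834-134314760, minus strand) was among the steadier genes of the group. It had 55409, 52625 and 60570 reads in saline and 43453, 65290 and 38431 in methamphetamine, a 2.10-fold range in CPM. Its rank by reads was 3 or 4 in every library.

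Ccnb1ip1 (chr14:50789248-50807732, minus strand) had 41872, 35728 and 57889 reads in saline and 52566, 53705 and 44949 in methamphetamine. Its CPM range of 1.90-fold was close to that of Pnck, 1.89-fold. Its lowest library was saline replicate 2, whereas for the other 7 genes the lowest was methamphetamine replicate 3.

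Angel2 (chr1:190925112-190946962, plus strand) had 39555, 22856 and 42971 reads in saline and 27343, 39364 and 9405 in methamphetamine. Saline replicates 1 and 3 and methamphetamine replicate 2 were again high, and the CPM range was 6.13-fold. The read count of methamphetamine replicate 3 put Angel2 at rank 33 there, against rank 6 to 9 in the other 5 libraries.

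Gm20604 (chr12:102741732-102758672, minus strand) and Gon7 (chr12:102753275-102757803, minus strand) had almost the same reads. Gm20604 had 38286, 16926 and 35669 in saline and 22545, 35009 and 7689 in methamphetamine. Gon7 had 38141, 16791 and 35513 in saline and 22399, 34850 and 7569 in methamphetamine. Gm20604 exceeded Gon7 by only 120 to 159 reads in each library, so the Gon7 count was 98.4% to 99.6% of the Gm20604 count. How the reads were assigned to the 2 models was not tested, and the near-equal values are not taken as independent measurements. Without Gon7, the remaining 7 genes still held 5.04% to 13.9% of the reads of a library. In GENCODE M21 both models share 263 exon bases, among them 205 coding bases of Gon7, which are shown because they are coding sequence of both models. Capitals mark runs of at least 3 G, of which there are 5 (chr12:102757541-102757745, minus strand, GRCm38):

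Gon7 and Gm20604 shared coding stretch: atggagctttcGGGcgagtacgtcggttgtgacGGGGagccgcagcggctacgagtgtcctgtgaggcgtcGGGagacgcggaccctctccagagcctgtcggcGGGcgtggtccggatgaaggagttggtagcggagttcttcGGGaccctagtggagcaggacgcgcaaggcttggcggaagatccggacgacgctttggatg

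Other genes at that locus had few reads. Moap1, which lies within Gm20604 on the same strand and shares 1165 exon bases with it, had 37 to 72 reads per library. Tmem251, on the opposite strand, had 22 to 42 reads, and Ubr7, also on the opposite strand and overlapping Gm20604 by 212 exon bases, had 133 to 169 reads. Gm28051, a further model on the same strand that shares 225 exon bases with Gon7, has no row in the RNA-seq table. The counts of Moap1, Tmem251 and Ubr7 were thus far below those of Gm20604 and Gon7.

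The choice ends just below Gon7, which had 155263 reads in total. The next genes were Mbp (myelin basic protein) with 152627, Hdgfl3 with 151209, Mtcp1 with 134215 and Cmc4 with 134213 reads. The boundary is thus narrow, since Mbp had only slightly fewer reads than Gon7. Mtcp1 (chrX:75410444-75416588) and Cmc4 (chrX:75404846-75416584) overlap on the minus strand. Their reads differed by at most 2 in any library, so they form a second pair of genes with near-identical counts.

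**Figure D1:**
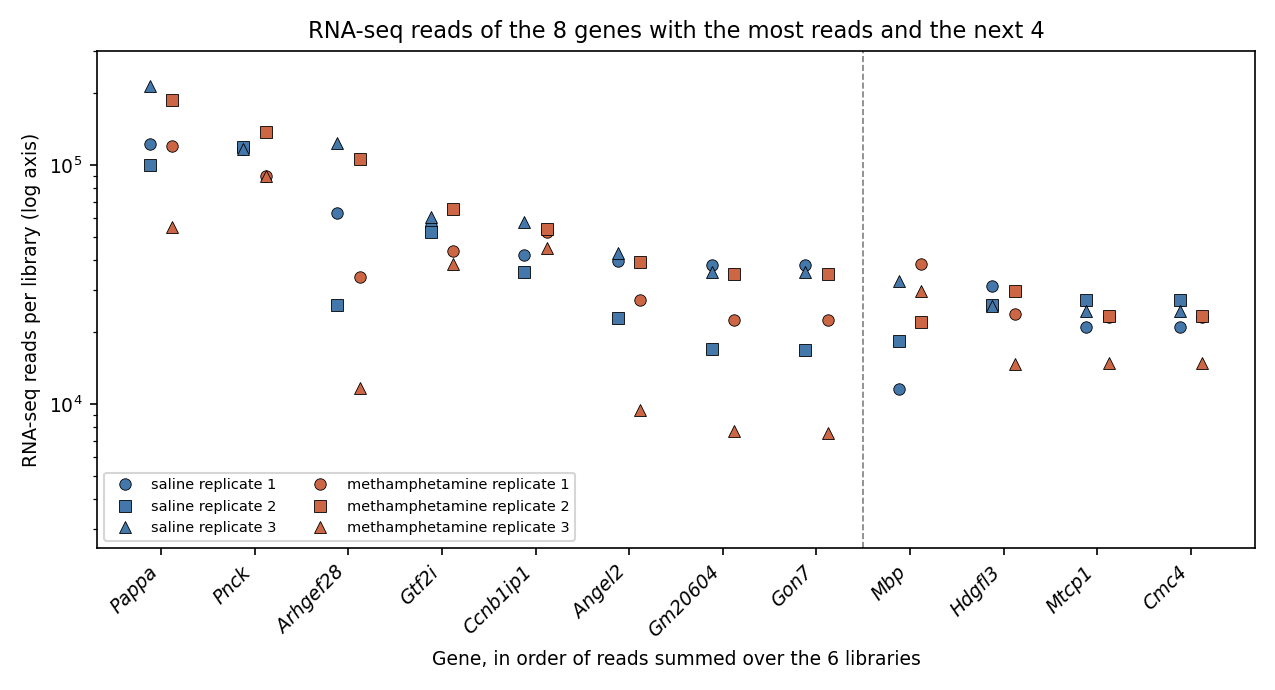
RNA-seq reads per library (log axis) of the 8 genes, left of the dashed line, and of the next 4 genes, right of it; each point is 1 library, blue for saline and orange for methamphetamine, with the symbol giving the replicate. Arhgef28 spans 11708 to 123016 reads, and for 7 of the 8 genes methamphetamine replicate 3 is the lowest point.

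The 8 genes together took 13.1%, 8.28% and 14.6% of all reads in the saline libraries, against 8.40%, 13.5% and 5.19% after methamphetamine. The mean share was 12.0% ± 3.31 (SD, n = 3) in saline and 9.02% ± 4.17 (SD, n = 3) in methamphetamine, a difference of -2.98 percentage points. The libraries with a high share were saline replicates 1 and 3 and methamphetamine replicate 2, the same 3 that stand apart on the first principal component. Their effective library sizes in the deposited values were 0.860 to 0.904 times the read totals, against 1.01 to 1.02 times in the other 3 libraries. Summed striatal markers were 6847 to 7626 CPM in the high-share libraries and 5743 to 6471 CPM in the others, and summed astrocyte markers were 1770 to 1991 CPM against 2832 to 3268 CPM. Summed cortical markers were 117 to 337 CPM in the high-share libraries and 408 to 807 CPM in the others. Microglia markers were likewise at 177 to 204 against 247 to 286 CPM, and endothelial markers at 38.1 to 51.0 against 65.4 to 89.8 CPM, whereas choroid plexus and oligodendrocyte markers overlapped between the sets. The split follows the members' own read shares, and how many of all genes separate in the same way was not counted. Marker CPM is scaled to plain read totals with the members included, so a larger member share lowers the CPM of all other genes. The part of the marker levels in the read shares was not tested, and in pooled tissue more cells of a type and more RNA per cell cannot be told apart.

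**Figure D2:**
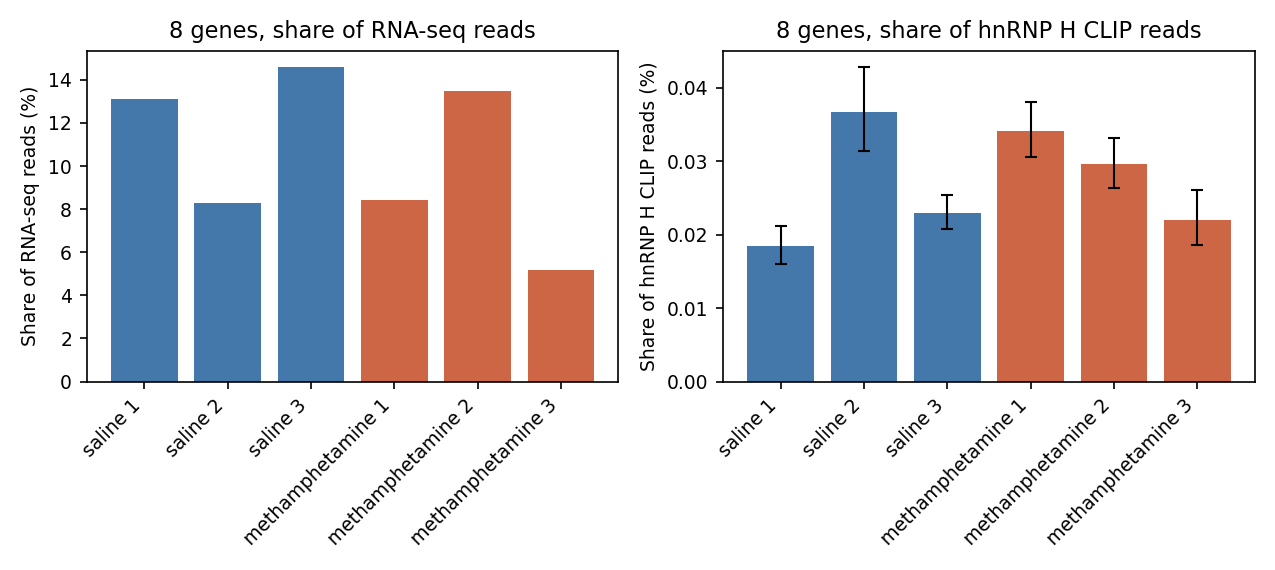
Share of the 8 genes in the reads of each library, in RNA-seq (left) and in hnRNP H CLIP positions (right), in percent; bars are single libraries, blue for saline and orange for methamphetamine, and the error bars on the right are Wilson 95% intervals, which cover counting error only. The RNA-seq shares run from 5.19% to 14.6% and the CLIP shares from 0.0184% to 0.0366%, so the axes differ in scale. The highest CLIP share, in saline replicate 2, includes 35 reads at each of the overlapping top positions of Gm20604 and Gon7. The same reads can count in both positions.

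Across the 6 libraries the genes moved largely together. The Pearson correlation of log2 CPM between members ran from 0.55 for Pnck with Ccnb1ip1 to 0.999999 for Gm20604 with Gon7, the pair with near-identical counts. Angel2, on another chromosome, correlated at 0.995 with Gon7, and Pappa at 0.989 with Arhgef28. Ccnb1ip1 was the least alike, at 0.81 with the median profile of the 8 genes, and Angel2 the most alike, at 0.99. These coefficients rest on 6 libraries that share their depth and their split into 3 high and 3 low libraries, and they are given as a description.

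Among genes outside the group with at least 60 reads, Faap20 (r = 0.9989, 3366 reads), Iffo2 (r = 0.9984, 6027 reads) and Hoxc8 (r = 0.9978, 162 reads) were most like the median profile. Faap20 had 682, 380 and 821 reads in saline and 475, 839 and 169 in methamphetamine, the same order of high and low libraries at a much lower level. Of 13169 such genes, 619 correlated above 0.9 with the median profile, and 7326 correlated below 0.

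No member differed between treatments by the test across all genes. In limma's test on the deposited log2 CPM, 0 of the 8 genes and 0 of 18208 genes (0%) passed an adjusted p under 0.05. At an unadjusted p under 0.05 there were 276 genes of 18208, none of them a member, and edgeR and DESeq2 on the recovered reads also called 0 genes. The fitted differences of all 8 genes were below 0 (7 of 8 with plain library totals), against 49.6% of all genes, but the members' levels are correlated, so these are not 8 separate observations. Their median was -0.75 on the log2 scale and that of all genes 0.00.

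In limma's fit the largest difference in size was that of Arhgef28, with a mean log2 CPM of 13.81 in saline and 12.81 in methamphetamine, a difference of -1.002 (SE 0.90, 95% interval -3.02 to 1.02, limma, adjusted p = 0.9998). Gon7 differed by -0.90 (SE 0.65), Angel2 by -0.89 (SE 0.61) and Gm20604 by -0.89 (SE 0.64). On the recovered reads the order was another, with -0.74 for Gon7 and -0.70 for Arhgef28 in edgeR and -0.75 and -0.70 in DESeq2. For Pappa the difference was -0.61 (SE 0.71), for Gtf2i -0.48 (SE 0.45) and for Pnck -0.42 (SE 0.56). Ccnb1ip1 was nearest to 0, at -0.06 (SE 0.43, 95% interval -1.03 to 0.91), and with plain library totals its sign turned to 0.02. All 8 intervals contain 0 and are wide, so with 3 pools per treatment differences up to the bounds are not excluded.

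For 7 of the 8 genes, leaving out methamphetamine replicate 2 gave the lowest and leaving out replicate 3 the highest difference. Without methamphetamine replicate 3 the difference was -0.17 for Arhgef28, -0.24 for Angel2, -0.22 for Gon7 and -0.08 for Pappa, while without methamphetamine replicate 2 it was -1.88 for Arhgef28. Ccnb1ip1 moved most with the saline libraries, to -0.32 without saline replicate 2 and 0.14 without saline replicate 3. In none of the 8 genes were the 3 saline values all above or all below the 3 methamphetamine values, compared with 6.01% of all genes (1095 of 18208) whose groups did not overlap.

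**Figure D3:**
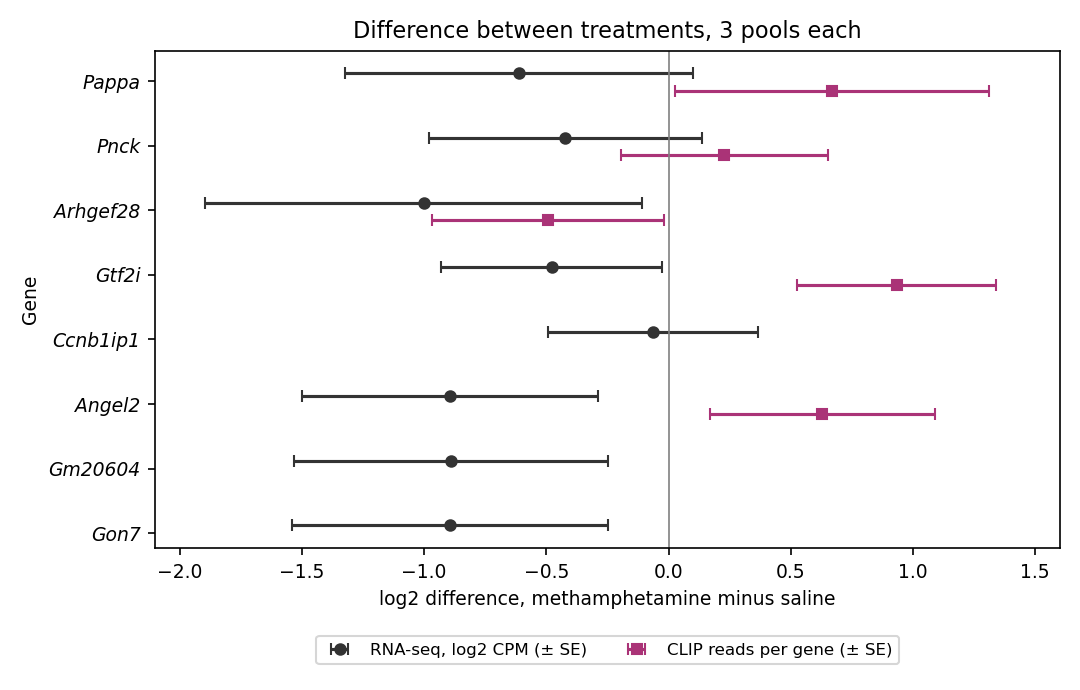
Difference between methamphetamine and saline on the log2 scale (horizontal axis) for each gene, as RNA-seq log2 CPM from limma (black circles) and as CLIP reads per gene from edgeR (purple squares), with bars of 1 SE; 3 pools per treatment. All RNA-seq values lie below 0, from -1.002 for Arhgef28 to -0.06 for Ccnb1ip1 (above 0 with plain library totals or a pseudocount of 2 reads), and 4 of the 5 CLIP values lie above 0.

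By the choice every other gene has fewer reads than the members, so genes that work with the members are given as a description. Of 39 such relatives, 38 were in the table, with 6 to 8317 reads over the 6 libraries. The median over all genes was 302 reads. For Pappa, the binding protein gene Igfbp5, a substrate of the protease, had 4580 reads, whereas the paralogue Pappa2 had 36 and the growth factor gene Igf1 had 16. Per kilobase, Igfbp5 stood at 26.9 RPKM and Pappa at 2585 RPKM.

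For Pnck, the upstream kinase gene Camkk2 had 8317 reads and the family member Camk1 1162. For Arhgef28, the exchange factor gene Arhgef12 had 8014 reads, and for Gtf2i the paralogue Gtf2ird1 had 2396. For Ccnb1ip1, the 6 meiotic genes had 6 to 264 reads, with Mlh3 the highest and Rnf212, a ligase of the same process, the lowest. Noct, a relative of Angel2, had 2146 reads, and the KEOPS catalytic subunit gene Osgep had 452 against 155263 for Gon7. None of the 38 relatives passed limma's test between treatments, none had an unadjusted p under 0.05, and 16 of 38 had a difference below 0, with a median of 0.04 on the log2 scale.

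Of the 8 genes, only Ccnb1ip1 overlaps a short non-coding gene in an exon. That gene is Rpph1 (chr14:50807449-50807767, minus strand, 319 bases in GENCODE M21), the RNA component of RNase P, a ribonucleoprotein that trims the 5′ end of transfer RNA precursors. The exon of Ccnb1ip1 at its 5′ end (50807500 to 50807732) lies entirely inside Rpph1 and on the same strand, so 233 bases, 73.0% of Rpph1 (its bases 36 to 268), belong to both genes. Rpph1 has no row in the RNA-seq table, which lists none of 13 named small structured RNAs and none of 164 symbols starting with Snord, Snora, Scarna or Rnu, while 17838 of its 17927 annotated genes are protein-coding. Whether the reads assigned to Ccnb1ip1 come from RNase P RNA was not tested, because positions of reads within a gene were not used here. The ends of the shared stretch are shown because any read within them fits both annotations (first shared bases at chr14:50807703-50807732, last at chr14:50807500-50807529, minus strand, GRCm38; capitals mark a run of at least 3 G):

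Rpph1 and Ccnb1ip1, first 30 shared bases: gtgcgtgtcactcttcggcccctGGGaagg
Rpph1 and Ccnb1ip1, last 30 shared bases: acggccagcagtgcgagttcaatggctgag

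The other members gave little such overlap. Gtf2i contains Gm43480, a non-coding gene of 416 bases in an intron on the same strand, and Gm43481 of 3672 bases, whose type is to be experimentally established. Arhgef28 contains a snoRNA of 143 bases in RefSeq, with the nearest CLIP position of the gene 7394 bases away, and the longer non-coding gene Gm34469, whose span covers 220 exon bases of Arhgef28. Pappa, Pnck and Angel2 overlap no other annotated gene in either annotation. Over all 17927 genes with a model, 2077 (11.6%) overlap a short non-coding gene and 419 (2.34%) do so in an exon, and among the 8 genes these were 2 and 1.

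Members were also compared by sequence with 6114 annotated small RNAs. At a minimum of 95% identity over 50 bases, only Ccnb1ip1 matched, to Rpph1 at 100% identity over 233 bases. At 85% identity over 30 bases, Pappa, Gtf2i and Gon7 matched annotated miRNA-type or other small RNA entries, the longest at 85.1% over 67 bases, 85.03% over 167 bases and 90.6% over 64 bases. Pnck, Arhgef28, Angel2 and Gm20604 had no match at either setting. For these 4 genes, neither a short non-coding gene in an exon nor a matching small RNA was found. Which reads the longer genes that overlap exons of Arhgef28 and Gm20604 share with them was not tested.

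The CLIP table held 127 distinct positions of 100 bases for these genes, with 1456 reads in all out of 5596005. Overlapping positions of Gm20604 and Gon7 are both included, so some reads can be counted in both. Gtf2i had 70 positions and 532 reads, Arhgef28 had 19 and 216, Angel2 had 17 and 159, Pnck had 11 and 309 and Pappa had 6 and 121. Gm20604 and Gon7 had 2 positions each, with 65 and 54 reads, and Ccnb1ip1 had none in the table. Introns held 109 of the 127 positions, exons of untranslated regions 11, other exons 5 and coding exons 2. Counts per position were low: 63 positions had at most 3 reads in every library, and no position had more than 3 reads in all 6.

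Set against RNA-seq reads, CLIP reads were few. For every 100000 RNA-seq reads there were 15.2 CLIP reads in Pappa, 46.2 in Pnck, 59.4 in Arhgef28, 168 in Gtf2i, 87.6 in Angel2, 41.6 in Gm20604 and 34.8 in Gon7. The median over 13177 genes with at least 60 RNA-seq reads was 7775. Of the 11437 such genes with any CLIP read, 4 had a lower ratio than Pappa and 84 a lower ratio than Gtf2i. A further 1740 genes, Ccnb1ip1 among them, had no read in the counted positions. With these included, 1744 of 13177 genes (13.2%) lay below Pappa and 1824 (13.8%) below Gtf2i.

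The denominator is the measure that chose the genes, so a low ratio follows in part from the choice and is given without a test. The 50 genes ranked 9 to 58 by RNA-seq reads give a comparison at the next level down: their median was 945 CLIP reads per 100000 RNA-seq reads, and 13 of 50 were below Gtf2i. Mbp stood at 1042 and Hdgfl3 at 462, but Mtcp1 and Cmc4 each had only 2 CLIP reads, or 1.49 per 100000. CLIP reads alone, which the choice did not use, had a median of 140 over the 8 genes, 604 over those 50 genes and 60 over all 13177. Genes without a counted position enter these medians as 0, among them Ccnb1ip1, which has a position in the authors' deposited lists. Gm20604 and Gon7 enter as separate values although their positions overlap. By CLIP reads the 7 members with a position ranked 2081 to 8703 among the 16918 genes with a position, while by RNA-seq reads they ranked 1 to 8. CLIP reads were counted per position and mostly in introns while RNA-seq reads were counted per gene, so the ratio compares genes with each other and is no binding rate.

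**Figure D4:**
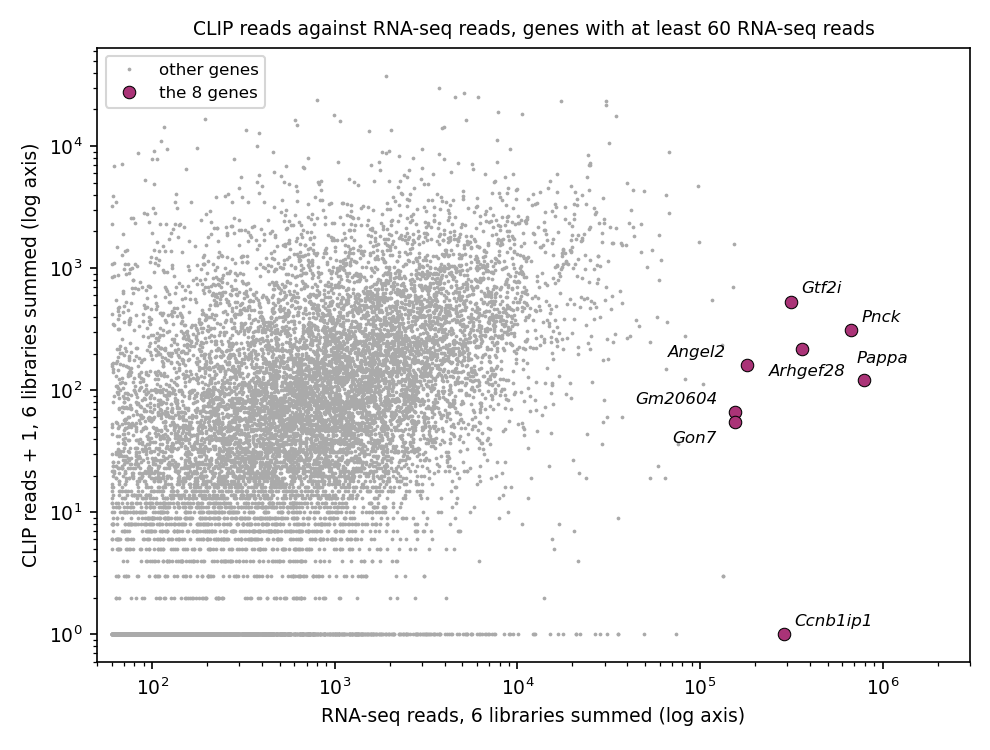
CLIP reads plus 1 (vertical, log axis) against RNA-seq reads (horizontal, log axis), each summed over 6 libraries, for 13177 genes with at least 60 RNA-seq reads; purple circles are the 8 genes and grey dots the other genes. The 8 genes lie at the right edge, from 155263 RNA-seq reads upwards, with at most 532 CLIP reads, and Ccnb1ip1, which has no position in the count table, is drawn at 1.

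Pnck had its CLIP positions between chrX:73658295 and chrX:73659994, from near its 5′ end to near its middle. Its position with the most reads (chrX:73659395-73659494, minus strand, intron) had 3, 7 and 21 reads in saline and 10, 17 and 10 in methamphetamine. The authors' deposited peak lists hold this position for both treatments, with signal values of 1.11 in saline and 1.48 in methamphetamine, q = 0.0005876 and q = 5.151e-08. Both lists label this position as 5′ untranslated region and as intron. It was the only member position with enough reads for the test per position, where it differed by 0.71 on the log2 scale (edgeR quasi-likelihood, adjusted p = 0.9998), among 10358 positions tested of which 0 (0%) were called.

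The adjoining Pnck position (chrX:73659295-73659394) had 28 reads and lies in an exon, a 5′ untranslated region of 1 transcript. It holds 8 runs of at least 3 G. A stretch of 30 bases with 3 of them is shown as the kind of sequence hnRNP H is known to bind (chrX:73659360-73659389, minus strand, GRCm38; capitals mark the runs):

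Pnck, 30 bases: cctGGGcGGGaggagtaaggtgtacttGGG

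In Angel2 the position with the most reads (chr1:190928813-190928912, plus strand, 5′ untranslated region) had 6, 2 and 7 reads in saline and 4, 10 and 4 in methamphetamine. The next 2, with 21 reads each, and the fourth, with 20, lie in GENCODE exons outside coding sequence and untranslated regions. The authors' deposited methamphetamine list labels the fourth as intron. These positions are shown because they are the members' exonic positions outside untranslated regions with the most reads (chr1:190928913-190929012, chr1:190938113-190938212 and chr1:190938213-190938312, plus strand, GRCm38; capitals mark runs of at least 3 G):

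Angel2 position 2: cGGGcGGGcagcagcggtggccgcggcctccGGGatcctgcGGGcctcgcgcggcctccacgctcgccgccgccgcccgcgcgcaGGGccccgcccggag
Angel2 position 3: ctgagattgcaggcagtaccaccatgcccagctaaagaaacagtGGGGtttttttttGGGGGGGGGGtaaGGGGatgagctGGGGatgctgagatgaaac
Angel2 position 4: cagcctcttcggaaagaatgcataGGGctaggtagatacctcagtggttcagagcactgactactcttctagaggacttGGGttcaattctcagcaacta

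Position 3 has a run of 10 G and position 2 has 5 runs of 3. The motif GGG, searched on the transcript strand and counting longer runs as a match, was in 12 of the 15 exonic member positions that lie within 1 exon, and in 70.9% of the 24074 such positions of all genes, so its presence in the members is close to the background. GGGG was in 5 of 15 against 36.5% of all.

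In Arhgef28 the position with the most reads (chr13:98041970-98042069, minus strand, intron) had 10, 0 and 20 reads in saline and 0, 15 and 1 in methamphetamine. The 3 libraries with many RNA-seq reads of Arhgef28 were also the 3 with 10 or more reads at this position. The next position (chr13:98071070-98071169, minus strand, intron) did not follow that order, with 11, 5 and 7 reads in saline and 1, 12 and 6 in methamphetamine, or 10.4, 11.8, 4.28, 1.10, 12.2 and 10.1 CPM. Per gene, Arhgef28 had 48, 16 and 71 CLIP reads in saline and 26, 46 and 9 in methamphetamine, or 45.6, 37.8, 43.4, 28.6, 46.9 and 15.1 CPM of CLIP reads in that order. The authors' deposited saline list holds 4 positions of the gene and the methamphetamine list 2.

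Pappa had 53 reads at its position with the most reads (chr4:65211475-65211574, plus strand, intron), of which 39 came from methamphetamine replicate 2 and 0 from saline replicate 2 and methamphetamine replicate 3. Its second position (chr4:65260575-65260674, intron) was more even, with 3 to 9 reads per library. Gtf2i had its reads spread thinly, with at most 28 reads at any position (chr5:134313635-134313734, minus strand, intron), and 2 reads at the single position that overlaps Gm43480.

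Gon7 and Gm20604 have overlapping top positions in an intron next to the shared exon (chr12:102757376-102757475 and chr12:102757333-102757432, minus strand). They had 53 and 52 reads, and 35 of each came from saline replicate 2. The positions overlap, so the same reads can count in both. The authors' deposited saline list holds both positions, with signal values of 5.52 and 2.59, and the methamphetamine list holds neither.

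Ccnb1ip1 has a position in the authors' deposited lists for both treatments (chr14:50807349-50807448, minus strand), with a signal value of 1.34 in saline and 0.98 in methamphetamine. In GENCODE M21 it lies directly downstream of the 3′ end of Rpph1 in transcript direction, while the RefSeq model of Rpph1, which starts at 50807447, overlaps it by 2 bases. No line of the count table gives this position, so it has no value per library. Pappa, with 1 listed position, and Gtf2i and Angel2, with 2 each, are in the authors' methamphetamine list only. In all, the authors' deposited lists hold 8 member positions of 9537 in saline and 9 of 9903 in methamphetamine.

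CLIP reads summed per gene did not differ between treatments in the test for any member. Of the 8 genes 5 had enough reads to be tested, and 0 of them and 0 of 8185 genes (0%) passed an adjusted p under 0.05 in edgeR's quasi-likelihood test, while 429 had an unadjusted p under 0.05 and DESeq2 called 0. Gtf2i had 58, 25 and 136 reads in saline and 158, 87 and 68 in methamphetamine, or 55.1, 59.1 and 83.2 CPM against 173.8, 88.8 and 114.2 CPM. In CPM the groups of Gtf2i and Angel2 did not overlap, 2 of the 5 tested members, compared with 9.26% of the 8185 genes, and those of Pappa, Pnck and Arhgef28 overlapped. For Angel2 the groups almost touched. Its highest saline value was 26.58 CPM (28 reads, replicate 1) and its lowest methamphetamine value 26.87 CPM (16 reads, replicate 3). The difference of Gtf2i was 0.93 on the log2 scale (SE 0.41, edgeR adjusted p = 0.88, unadjusted p = 0.0477). Pappa differed by 0.67 (SE 0.64), Angel2 by 0.63 (SE 0.46), Pnck by 0.23 (SE 0.42) and Arhgef28 by -0.49 (SE 0.47). Without methamphetamine replicate 2 the value for Pappa was -0.35, and without saline replicate 1 that for Pnck was -0.04. Angel2 ran from 0.29 to 0.78, Arhgef28 from -0.93 to -0.20 and Gtf2i from 0.60 to 1.14 when each library was left out, the value of 0.60 being that without methamphetamine replicate 1. The 5 tested genes had 121 to 532 CLIP reads over the 6 libraries, which with 3 pools per treatment limits the precision of these values.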

How the data were processed

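Log2 CPM was deposited for RNA-seq, on voom's scale; 100% of the values inverted to whole reads (offset 0.5, tolerance 0.01), and these recovered reads are the reads given. The deposited CLIP table holds counts per position, used once per gene and position. The authors' peak lists give a signal value, treated as a score, with a q-value from a test not given in the sources used here. The submitters' processing notes name Trimmomatic, UMI-tools, STAR, bedtools, Subread, featureCounts, limma, edgeR and mm10, without versions or roles. Whether counting used strand is not given, so overlapping and antisense genes remain uncertain.

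Here limma 3.58.1 (trend) was fitted to 18208 genes and edgeR 4.0.16 (TMM, filterByExpr; standard errors from the quasi-likelihood F) to CLIP counts, with Benjamini-Hochberg adjustment at 0.05 and DESeq2 1.42.0 as an alternative. Fits were tested on simulated data with planted changes larger than any member difference. Whether differences of the members' size would be found was not tested. Annotation and sequences came from GENCODE M21, further overlaps from RefSeq (GRCm38.p6), and matches from blastn 2.17.0. RPKM used all exons of a gene and recovered totals. The region given for a CLIP position is that of its middle base. The pools are separate mice.

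The members and gene lists were chosen with earlier results of these data known. Named genes are the members, the next 4 genes by reads, the 3 most alike genes, the top listed relatives, short overlapping non-coding genes and, per member, the 3 positions with the most reads. The other genes and positions named, the comparison with the 50 next genes and the overlap of CLIP groups were chosen after their values were seen.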

Additional observations from a re-analysis of the deposited data

How the results depend on the processing

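Counts of genes called stayed at 0 under all 13 alternatives for RNA-seq and all 10 for CLIP reads per gene. For CLIP positions the count was 0 except without a filter on low counts, where edgeR called 414 of 140449 positions, none of them in the 8 genes; in 413 of these 414 more than 50% of the reads came from a single library. A replicate block and a minimum mean log2 CPM per gene cannot change a member's RNA-seq difference, only its p-value. Of 104 member values recomputed for RNA-seq, with those settings included, 100 kept their direction and stayed above the threshold. The exceptions were all Ccnb1ip1, at 0.0198 with plain library totals, 0.0198 with a pseudocount of 2 reads and -0.32 to 0.14 when each replicate was left out (above 0 without saline replicate 3 or methamphetamine replicate 3). Of 50 recomputed for CLIP, 48 kept their direction, and the exceptions were Pnck, at -0.0425 to 0.42 when each replicate was left out (below 0 without saline replicate 1), and Pappa, at -0.35 to 1.05 (below 0 without methamphetamine replicate 2). The cause was not tested. The difference in the share of reads ran from -5.20 to -1.06 percentage points when each replicate was left out.

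Replicate numbers are shared between treatments in the labels, but same-numbered pools did not deviate together: the correlations were -0.35, -0.82 and -0.49 in RNA-seq and -0.26, -0.42 and 0.00 in CLIP. With the replicate number as a block 0 genes or positions were called. The share difference stays at -2.98 percentage points by construction with equal groups, so the block is no check on it. CLIP depth limits the values per position: 63 of 127 member positions had at most 3 reads in every library.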
